A study of Mus musculus with 2 samples.

Results

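The genes described here are 7 genes that Schwann cells of peripheral nerve use to build and maintain myelin, namely Mbp, Pmp22, Prx, Mal, Mag, Ncmap and Egr2. They were taken by gene symbol from the 32285 genes of a single-cell RNA sequencing (scRNA-Seq) dataset of the mouse temporomandibular joint (TMJ), and each symbol matched a single gene. The dataset holds 2 libraries of joints from wild-type (WT) C57BL/6 mice labelled 8 to 10 weeks of age, female according to the methods. The PBS library came from joints injected with PBS, the vehicle control, and the CFA library from joints injected with complete Freund's adjuvant (CFA), a suspension that causes joint inflammation. Tissue was collected 3 weeks after injection according to the methods, and immune cells carrying CD45 had been reduced with magnetic beads in both libraries. Cells of each condition went into a single library and cannot be assigned to mice, so with 1 library per condition the spread between animals is unknown and nothing was tested.

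Myelin in peripheral nerve is the membrane of a Schwann cell wrapped many times around a stretch of axon. Its compact layers are held together by adhesion and basic proteins, its outer and inner layers carry other proteins that face the basal lamina and the axon, and a small set of transcription factors, Egr2 and Sox10 among them, drives the genes that encode them. Schwann cells of the other main kind, the nonmyelinating cells, ensheathe small axons in bundles and form no compact myelin. In joint tissue, both kinds run with nerve fibres.

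In short, all 7 genes were detected in Schwann cells of both libraries, and 6 of the 7, all but Egr2, were at least 10-fold higher there than in every other named cell class of at least 50 cells. The same 6 genes were lower in Schwann cells of the CFA library than of the PBS library, with CFA to PBS ratios from 0.451 for Pmp22 to 0.723 for Prx. In myelinating cells alone these ratios were nearer 1, from 0.545 for Pmp22 to 0.884 for Prx. Egr2 was the exception in both respects. Its ratio in Schwann cells was 1.16, and its level in satellite cells of PBS joints and in macrophages of CFA joints came within 4-fold of its level in Schwann cells.

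A total of 2667 PBS and 4014 CFA cells passed the limits of at least 500 genes, at most 10% mitochondrial and at most 1% hemoglobin UMIs, with medians of 7022 and 6509.5 UMIs. A unique molecular identifier (UMI) marks a captured RNA molecule, and levels are given as CPM, the UMIs of a gene summed over a set of cells, divided by all UMIs of those cells and scaled to a fixed total. Intervals are exact 95% intervals for the counting of UMIs alone, and the spread from mouse to mouse is not in them. The cells fell into 33 clusters, formed without the 7 genes and without 12 other structural myelin genes. Of these clusters, 28 were named from marker genes. The libraries shared 10 barcode sequences, 2 of them in kept cells and none in Schwann cells.

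Schwann-like cells made up 303 of the PBS cells (11.4%) and 376 of the CFA cells (9.37%), with medians of 3837 and 3431.5 UMIs per cell. The label was checked against 7 Schwann markers outside the set (Sox10, S100b, Cdh19, Gpm6b, Kcna1, Foxd3 and Erbb3). All 7 were detected in 3 of the 4 Schwann-like clusters, and 6 of the 7, all but Foxd3, in the other. The 4 clusters comprised 2 clusters of myelinating-like cells (258 PBS and 324 CFA cells together), a nonmyelinating-like cluster led by Cadm2, Cdh19, Grik2 and Scn7a (42 and 36 cells), and a small cluster of glia led by Fabp7 (3 and 16 cells). The Fabp7 cluster held few cells but deep ones, with 36450 PBS and 349776 CFA UMIs, so it weighs more on sums over all Schwann-like cells in the CFA library. Values for myelinating-like cells alone are therefore given beside those for all Schwann-like cells.

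Sequence just upstream of 4 of the genes is shown for orientation, because Egr2 protein and Sox10 are the factors that drive this set. The lines give 200 bases, from 250 to 51 bases before the annotated RefSeq start, 5′ to 3′ on the strand of the gene, in the GRCm38.p6 build. Positions are chr11:63128732-63128931 on the plus strand for Pmp22, chr7:30914914-30915113 on the minus strand for Mag, chr4:135398278-135398477 on the minus strand for Ncmap and chr10:67535249-67535448 on the plus strand for Egr2. Capitals mark matches to an EGR motif (GCGNGGGNG) in Ncmap and Egr2 and to a SOX motif (ACAAAG, here read on the opposite strand) in Mag.
Pmp22: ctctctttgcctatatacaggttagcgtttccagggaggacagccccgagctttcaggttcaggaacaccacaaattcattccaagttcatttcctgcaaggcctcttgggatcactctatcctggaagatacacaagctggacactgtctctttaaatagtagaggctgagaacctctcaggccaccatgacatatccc
Mag: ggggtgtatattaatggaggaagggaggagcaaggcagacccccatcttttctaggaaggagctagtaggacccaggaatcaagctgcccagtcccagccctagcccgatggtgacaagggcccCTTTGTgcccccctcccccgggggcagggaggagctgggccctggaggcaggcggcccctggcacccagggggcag
Ncmap: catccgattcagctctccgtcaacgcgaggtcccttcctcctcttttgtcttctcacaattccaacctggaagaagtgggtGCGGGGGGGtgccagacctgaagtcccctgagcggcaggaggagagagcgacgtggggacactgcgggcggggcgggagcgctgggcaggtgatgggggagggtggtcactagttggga
Egr2: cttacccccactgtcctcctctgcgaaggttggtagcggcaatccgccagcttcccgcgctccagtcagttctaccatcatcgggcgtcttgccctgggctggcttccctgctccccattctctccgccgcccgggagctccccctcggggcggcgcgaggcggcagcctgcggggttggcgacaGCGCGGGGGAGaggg

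Both motifs were searched on both strands of windows that run from 250 bases before to 50 bases after a start, and such a window was at hand for 6 of the 7 genes, all but Mbp. The Egr2 window nearest the gene start held 4 EGR matches, whose first bases lie at -65, -63, 21 and 26 from the start base (negative is upstream), of which those at -65 and -63 overlap and the one at 21 lies on the opposite strand. The Ncmap window nearest the gene start held 1 EGR match, at -169, and that of Mag held 1 SOX match, at -126 on the opposite strand. Another of the 3 Mag windows held a SOX match at -67 from its own start, also on the opposite strand. Windows of a gene can overlap, so both matches may be the same bases. No match lay in the windows of Pmp22, Prx and Mal. Over all 32851 windows, 12.3% held the EGR motif and 18.7% the SOX motif, and a match is a description of these letters, not a binding site. In the GENCODE gene annotation, an exon of the gene Gm15541 overlaps Prx (chr7:27499324-27520214) on the opposite strand, and Gm12991 overlaps Ncmap (chr4:135369576-135398227) without sharing an exon. Reads in such shared stretches can be told apart only by strand.

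Both genes of compact myelin were lower in Schwann-like cells of the CFA library. Pmp22, a membrane protein of compact peripheral myelin whose gene dosage is altered in inherited demyelinating neuropathies, was at 10780.3 CPM in PBS (16313 UMIs) and 4859 in CFA (8968 UMIs). The CFA to PBS ratio was 0.451 (interval 0.439 to 0.462). Mbp, the basic protein that closes the cytoplasmic faces of the myelin membrane, was at 4853 CPM in PBS (7343 UMIs) and 2799 in CFA (5166 UMIs), a ratio of 0.577 (0.557 to 0.598). In both genes the counting intervals of the libraries lay far apart. In myelinating-like cells alone, the level of Pmp22 was 12992 in PBS and 7082 in CFA (ratio 0.545, 0.531 to 0.560), and that of Mbp was 5818 and 4036 (0.694, 0.669 to 0.719).

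Mal encodes a proteolipid of lipid-rich membrane domains that sorts proteins into the myelin membrane. Its level in Schwann-like cells was 2309.6 CPM in PBS and 1406 in CFA, a ratio of 0.609 (0.579 to 0.641), and in myelinating-like cells it was 2738 and 1856, a ratio of 0.678 (0.642 to 0.715). Mag encodes a sialic acid-binding adhesion protein of the innermost myelin layer, next to the axon. It had few UMIs, 507 in PBS and 382 in CFA Schwann-like cells, at levels of 335 and 207 and a ratio of 0.618 (0.539 to 0.707). In myelinating-like cells its ratio was 0.753 (0.657 to 0.862).

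The other myelin protein genes of the set had ratios nearer 1 in Schwann-like cells, though the interval of Ncmap overlapped those of Mal and Mag. Prx encodes periaxin, a scaffold that links the outermost Schwann cell membrane to the basal lamina through Drp2 and dystroglycan, and its level in Schwann-like cells was 1276 in PBS and 923 in CFA, a ratio of 0.723 (0.677 to 0.773). Ncmap, the noncompact myelin-associated protein, was at 1809 and 1190.3, a ratio of 0.658 (0.622 to 0.696). In myelinating-like cells the Prx ratio was 0.884 (0.827 to 0.944) and the Ncmap ratio 0.803 (0.759 to 0.850), so both were closer to 1 there than over all Schwann-like cells.

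Egr2, the zinc finger transcription factor that Schwann cells need to begin and keep myelination, went the other way. Its level in Schwann-like cells was 358 CPM in PBS (542 UMIs) and 416 in CFA (767 UMIs), a ratio of 1.16 (1.04 to 1.30). In myelinating-like cells it was 407 and 580.4, a ratio of 1.43 (1.27 to 1.60). Egr2 is also an immediate early gene in many cell types, and its relation to other such genes is described with the clusters.

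**Figure D1:**
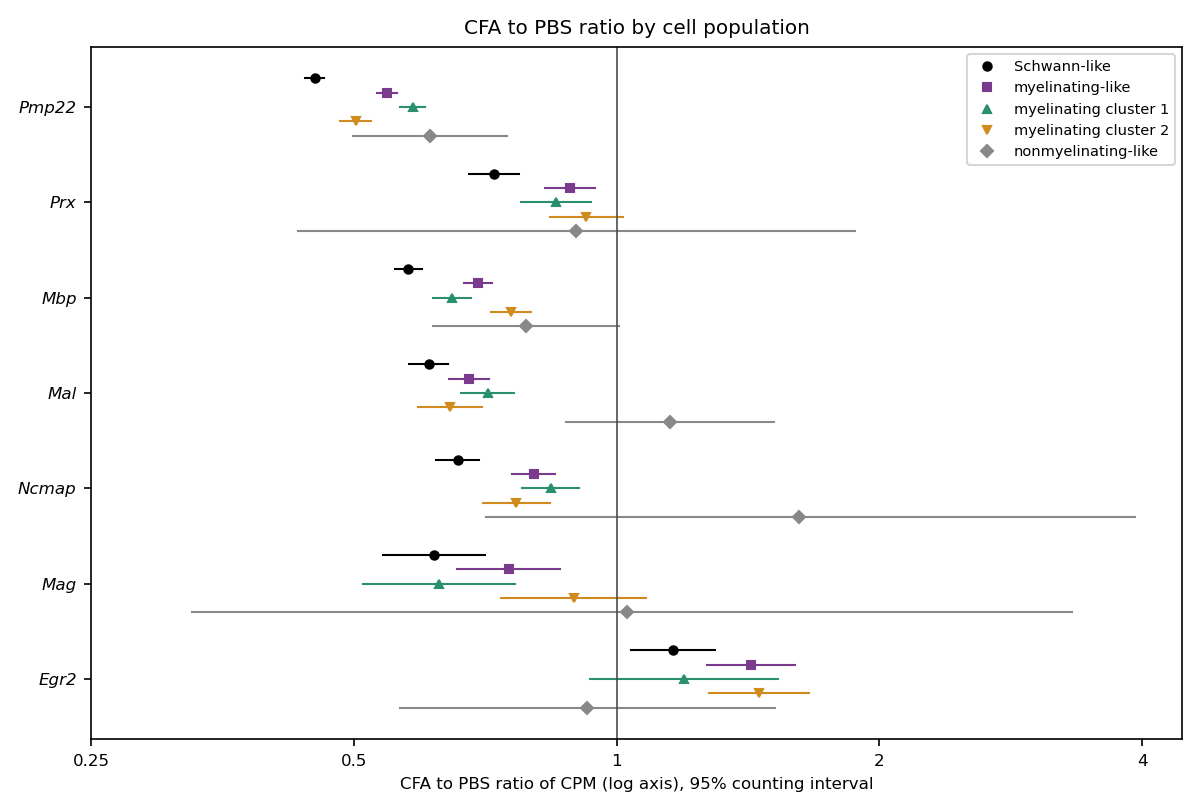
CFA to PBS ratio of CPM on a log axis for the 7 genes, in all Schwann-like cells, myelinating-like cells, each of the 2 myelinating clusters and nonmyelinating-like cells. Points are ratios of sums over 1 library per condition and lines are 95% counting intervals. In Schwann-like and myelinating-like cells all points but those of Egr2 lie below 1, and Egr2 lies at 1.16 and 1.43.

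These ratios can be read against all genes. Of the genes, 9892 reached 10 UMIs in Schwann-like cells of both libraries. Their median ratio was 1.04, and 44.0% of them were below 1. The median of the 7 genes was 0.618, and 6 of 7 were below 1. Only Pmp22 was at least 2-fold lower in CFA, against 2.04% of all genes, and none was at least 2-fold higher, against 4.25%. With limits chosen after these values had been seen, at least 100 UMIs in each library and a 1.25-fold difference, 6 of 7 were lower, against 15.0% of 2881 genes, and none was higher, against 15.4%.

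In myelinating-like cells the median ratio was 1.07 over 8892 genes, of which 40.7% were below 1. Over the 7 genes the median was 0.753, again with 6 of 7 below 1. None of the 7 was at least 2-fold lower, against 1.45% of all genes, and none at least 2-fold higher, against 3.30%. By the 1.25-fold limit, Mal, Mag, Pmp22 and Mbp were lower, against 13.5% of 2147 genes, and Egr2 was higher, against 20.1%. Of all genes that reached 10 UMIs there in both libraries, 2.52% had a lower ratio than Pmp22, 7.65% than Mal, 8.84% than Mbp, 12.97% than Mag, 17.9% than Ncmap and 27.1% than Prx. For Egr2 that share was 84.0%.

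Egr2 differed between the 2 myelinating clusters in the same direction in both libraries. The first, with 157 PBS and 198 CFA cells, had Cntf, Ncmap and Mal among its leading genes, and the second, with 101 and 126 cells, Kcna1 and Pou3f1. Within the PBS library, Egr2 was 3.14-fold higher in the second cluster than in the first (2.56 to 3.88), and within the CFA library 3.83-fold higher (3.18 to 4.63). The ratios of the second to the first cluster of the 6 myelin protein genes ran from 0.682 for Pmp22 to 0.879 for Prx in PBS, all below 1. In CFA, 5 of the 6 were again below 1, from 0.587 for Pmp22 to 0.953 for Prx, and Mag was above 1 (1.25, 1.01 to 1.54), against 0.875 in PBS (0.730 to 1.05).

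Genes of the immediate early response, added to the description after the values of Egr2 had been seen, were higher in the second cluster too. Unlike Egr2, they were not kept out of the genes used for clustering. They could therefore have helped to form the clusters, and their difference between clusters is not independent of the clustering. In the PBS library their ratio of second to first cluster was 5.79 for Fos, 4.42 for Fosb, 3.85 for Nr4a1, 9.71 for Atf3, 5.71 for Egr1 and 4.96 for Jun. In the CFA library it ran from 4.31 for Fosb to 13.6 for Atf3. The stress gene Hspa1a, added at the same time, was at 1.71 in PBS (0.797 to 3.84) and 1.23 in CFA (0.564 to 2.76). Both of its intervals held 1. Tissue digestion is known to induce such genes, and their part in the Egr2 values was not tested.

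Between conditions, Egr2 was at 621 CPM in PBS and 905 in CFA cells of the second cluster, a ratio of 1.46 (1.28 to 1.66). In the first cluster it was at 198 and 236.5, and its interval held 1 (ratio 1.19, 0.932 to 1.53). Over all myelinating-like cells the CFA to PBS ratio was 1.08 for Fos, 1.07 for Fosb, 0.963 for Nr4a1 and 1.92 for Atf3 (1.64 to 2.24). For Hspa1a it was 0.943 (0.554 to 1.60). Of these genes only Atf3, a stress-induced factor, had a ratio above that of Egr2.

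The myelin protein genes were below 1 in each myelinating cluster. In the first cluster the CFA to PBS ratio was 0.584 for Pmp22, 0.626 for Mag, 0.647 for Mbp, 0.712 for Mal, 0.841 for Ncmap and 0.852 for Prx. In the second it was 0.502 for Pmp22, 0.644 for Mal, 0.757 for Mbp, 0.768 for Ncmap, 0.893 for Mag (0.738 to 1.08) and 0.923 for Prx (0.839 to 1.02). The intervals of Mag and Prx thus held 1 in the second cluster. Pmp22 had the lowest ratio of the 7 genes in either cluster.

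Nonmyelinating-like cells carried the same transcripts at lower levels. Myelinating-like cells exceeded them 9.66-fold for Mbp, 12.8-fold for Pmp22, 21.9-fold for Prx, 6.79-fold for Mal, 13.9-fold for Mag, 53.1-fold for Ncmap and 2.80-fold for Egr2 in the PBS library. In the CFA library the folds ran from 4.01 for Mal to 26.4 for Ncmap. The clusters were called myelinating-like from myelin genes outside the set, so a difference of this direction goes with the naming.

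Between conditions, nonmyelinating-like cells gave wide intervals. Pmp22 was at 1014 CPM in PBS and 620.3 in CFA, a ratio of 0.612 (0.499 to 0.748), and was the only gene of the 7 whose interval did not hold 1. Mbp was at 602 and 475 (0.788, 0.616 to 1.01), Egr2 at 145 and 135 (0.925, 0.565 to 1.52) and Mal at 403 and 463 (1.15, 0.874 to 1.52). Prx, Ncmap and Mag rested on 7 to 18 UMIs in each library. None of the 6 genes that reached 10 UMIs in both was past 2-fold, against 4.30% of 4139 genes lower and 3.89% higher.

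In the Fabp7 glia, Mag had no UMI in either library, Ncmap had none in PBS and 1 UMI in CFA, and Prx none in PBS and 6 in CFA. Mal was at 357 CPM in the 3 PBS cells and 549 in the 16 CFA cells, and Mbp at 165 and 232. Pmp22 was at 274 and 294, and Egr2 at 110 and 51.5. Each of the 4 detected in both libraries was lower here than in myelinating-like cells of the same library.

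Across single cells the genes were found together. In myelinating-like cells the median number of the 7 genes with a UMI was 6 in both libraries, and 97.7% of PBS and 93.8% of CFA cells held 4 or more of them. All 7 were found in 111 PBS and 134 CFA cells. The median sum of their UMIs was 83.5 per PBS cell and 58 per CFA cell, and it was 23 and 18 after each cell had been thinned at random to 1000 UMIs. In nonmyelinating-like cells the median number was 3 in PBS and 4 in CFA. Among all other cells, 39.7% in PBS and 46.5% in CFA held none of the 7.

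Shares of cells with a UMI depend on depth, so they were compared at 1000 UMIs per cell. Schwann-like cells with fewer UMIs, 6 in PBS and 13 in CFA, were left out. Mbp and Pmp22 were found in 94.4% to 99.0% of cells of each myelinating cluster in each library. Mag showed the widest gap of the set in the first cluster, with 39.7% of PBS cells (31.9% to 48.0%) against 19.4% of CFA cells (13.9% to 25.8%), and in the second cluster it was found in 30.7% and 26.2%. The share for Egr2 in the first cluster was 14.6% in PBS and 22.6% in CFA, and in the second 50.5% and 57.1%. As counted, without thinning, Mag was found in 66.9% and 43.4% of cells of the first cluster, at medians of 3267 and 2530 UMIs per cell, and Egr2 in 38.2% and 41.4%.

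**Figure D2:**
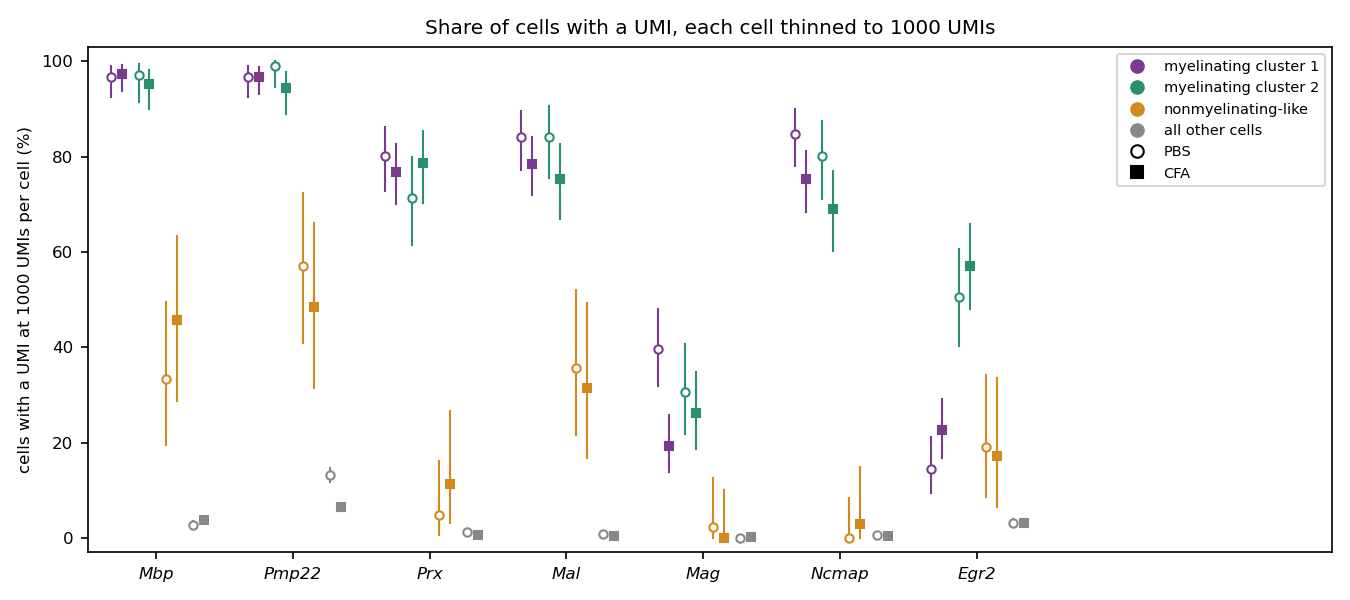
Share of cells with at least 1 UMI of each gene, in percent, after thinning every cell to 1000 UMIs, in the 2 myelinating clusters, nonmyelinating-like cells and all other cells. Open circles are PBS, filled squares CFA, and lines exact 95% binomial intervals. Mbp and Pmp22 sit above 94% in both myelinating clusters, and Egr2 sits higher in the second cluster than in the first in both libraries.

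Outside Schwann cells, the thinned shares were low for most of the set. Over all other cells they were 2.76% in PBS and 3.72% in CFA for Mbp, 13.2% and 6.53% for Pmp22, 1.34% and 0.596% for Prx, and under 1% in each library for Mal, Mag and Ncmap. In endothelial-like cells, which have no known need of compact myelin, the unthinned shares were 5.22% and 4.39% for Mbp and 0.299% and 0.280% for Mag, at medians of 5016 and 3788 UMIs per cell. In Schwann-like cells, at medians of 3837 and 3431.5 UMIs, the unthinned shares were 96.0% and 97.3% for Mbp and 61.4% and 49.5% for Mag.

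The comparison by class covered the named classes with at least 50 cells, 9 others in PBS and 11 in CFA, and left out the 5 unnamed clusters and smaller classes. Mbp, Pmp22, Prx, Mal, Mag and Ncmap were at least 10-fold higher in Schwann-like cells than in each of them, in both libraries. Of all genes with at least 10 UMIs in Schwann-like cells, 1.80% met this limit in PBS and 1.69% in CFA. The fold over the highest of these classes was 54.2 in PBS and 25.8 in CFA for Mbp, 53.1 and 49.97 for Prx, 53.2 and 24.2 for Mag, 39.1 and 35.6 for Ncmap, 28.9 and 15.6 for Pmp22, and 20.8 and 29.1 for Mal. For Egr2 it was 2.14 and 3.65. Without the hemoglobin limit the PBS fold was 22.5 for Mbp, 15.6 for Pmp22 and 21.0 for Prx.

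Put as shares, Schwann-like cells held 87.9% of the Mbp UMIs of all kept cells in PBS and 75.2% in CFA. For the other myelin protein genes this share ran from 76.9% (Pmp22) to 94.2% (Mag) in PBS and from 70.8% (Pmp22) to 91.1% (Ncmap) in CFA. For Egr2 it was 41.2% and 25.5%, so most Egr2 UMIs of the kept cells lay outside Schwann cells.

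**Figure D3:**
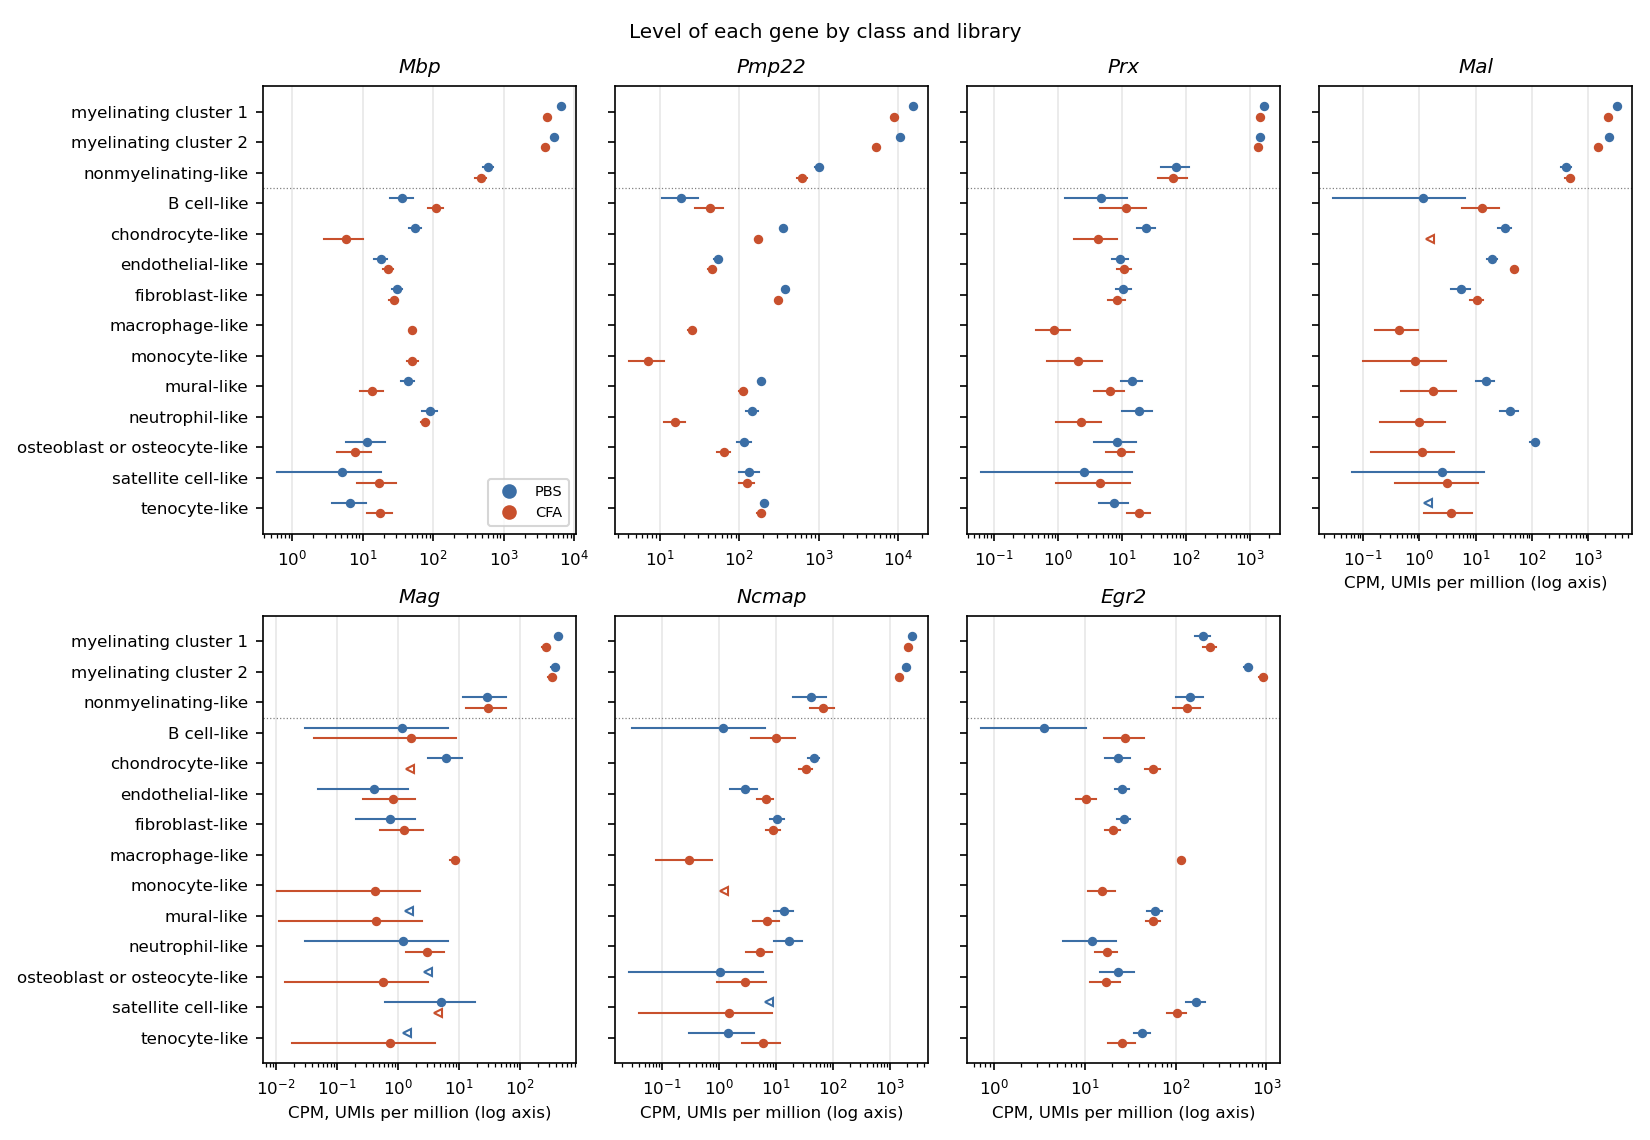
Level of each of the 7 genes in CPM on a log axis, by class and library. Points are sums over the cells of a class in 1 library, lines exact Poisson 95% intervals, and open triangles the level of 3 UMIs where none was counted. The myelinating clusters stand furthest to the right for each gene, by the least for Egr2, whose levels in PBS satellite cell-like and CFA macrophage-like cells (167 and 114) are near those of nonmyelinating-like cells (145 and 135).

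Levels outside Schwann cells are given by named class of at least 50 cells, with unnamed clusters and smaller classes where they were higher. RNA set free from broken cells can give UMIs in cells that do not express a gene, and its part in these levels was not tested.

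Egr2 had, relative to its level in Schwann-like cells, the highest levels of the set in other named classes. It was at 167 CPM in satellite cell-like cells of PBS joints, the stem cells of muscle, and at 102.9 in those of CFA joints. In macrophage-like cells of CFA joints it was at 114, with 1545 UMIs, and 62.4% of these 583 cells held a UMI at a median of 17770.0 UMIs per cell. Of the 42 CFA cells outside Schwann cells with at least 10 Egr2 UMIs, 39 were macrophage-like. The PBS library held 19 macrophage-like cells, with 20 Egr2 UMIs and a level of 97.8 (59.7 to 151), an interval that held the CFA level.

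Pmp22 was found in many classes. Among named classes, fibroblast-like cells had its highest level outside Schwann cells in both libraries, at 374 CPM in PBS and 312 in CFA. An unnamed cluster led by Nebl and Sema3g was at the same level in PBS (374, 338 to 413) and at 81.4 in CFA. In PBS, 2 of its 129 cells held at least 10 Pmp22 UMIs, and their weight in its level was not tested. A small unnamed cluster led by Prg4, the lubricin gene of joint lining and cartilage surface, was higher, at 480.1 in 30 PBS cells (423 to 542.5) and 554.5 in 6 CFA cells (436 to 695), the latter within 10-fold of the level in Schwann-like cells. Of the fibroblast-like cells, 28.1% in PBS and 21.5% in CFA held a Pmp22 UMI at 1000 UMIs per cell. Cells outside Schwann cells with at least 10 Pmp22 UMIs numbered 97 in PBS and 79 in CFA. Pmp22 was first known as a growth arrest gene of fibroblasts and is transcribed in many tissues.

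Mbp is also transcribed outside myelin, from an upstream start of the same gene used in blood cells, and counts per gene do not separate these transcripts. Among named classes, its highest level outside Schwann cells was 89.5 CPM in PBS, in neutrophil-like cells, and 109 in CFA, in B cell-like cells. In PBS, 1 neutrophil-like cell held 178 of the 268 UMIs of the 7 genes in that class. At least 10 Mbp UMIs were found in 1 PBS neutrophil-like cell and in 1 CFA B cell-like cell. The weight of these cells in the Mbp levels was not tested. Neutrophil-like cells of CFA joints were at 77.3 (67.8 to 87.9), and B cell-like cells of PBS joints at 36.4 (24.7 to 51.7). In CFA macrophage-like cells it was at 50.7, and 54.5% of them held a UMI, or 5.53% at 1000 UMIs per cell. Of the unnamed clusters, the one led by Vpreb1, Lef1, Igll1 and Dntt, genes of lymphocyte precursors, was higher than these classes, at 170 in PBS (117 to 239) and 133 in CFA (85.0 to 197). Another, with Stat4 among its leading genes, was at 109 in PBS (83.1 to 141) and 119.5 in CFA (98.8 to 143).

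Mal was marked by few cells with many UMIs. All 105 Mal UMIs of osteoblast or osteocyte-like cells in PBS came from 1 cell, so the level of 111 CPM there, the highest of a named class outside Schwann cells in that library, rests on that cell. Endothelial-like cells held 293 Mal UMIs in CFA, in 26 of 1071 cells, with up to 49 in a cell, at 48.3 CPM. In PBS they held 96 UMIs in 23 cells, at 19.4. Cells with at least 10 Mal UMIs numbered 11 in PBS and 12 in CFA and held 72.8% and 77.7% of the Mal UMIs outside Schwann cells. In fibroblast-like cells Mal was at 5.45 CPM in PBS and 10.4 in CFA.

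Mag was nearly absent outside Schwann cells, with 31 UMIs in all other PBS cells and 142 in all other CFA cells. Of the 142, 116 lay in macrophage-like cells, spread over 90 of 583 cells with at most 4 UMIs in any, at 8.54 CPM (7.06 to 10.2). At 1000 UMIs per cell, 1.21% of these macrophage-like cells held a Mag UMI. The 19 macrophage-like cells of PBS held none, which allows a level of up to 14.7 CPM, so a difference between the libraries was not detectable at this depth.

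Ncmap and Prx had their traces in other classes. Among named classes, Ncmap was highest in chondrocyte-like cells, with 81 UMIs in 21 PBS cells (46.3 CPM) and 64 in 18 CFA cells (33.5). Prx was highest in chondrocyte-like cells of PBS (24.0) and tenocyte-like cells of CFA (18.5). In PBS, 3 chondrocyte-like cells held 36 of the 42 Prx UMIs of that class, so its level rests mainly on these cells. The unnamed cluster led by Vpreb1 was at 46.4 for Ncmap and 36.1 for Prx in PBS, from 9 and 7 UMIs, and the same cluster had the highest Mag level of PBS outside Schwann cells, 10.3 from 2 UMIs. In the 8 perineurial-like cells of CFA, 6 Prx UMIs gave 148 CPM (54.2 to 322), within 10-fold of Schwann-like cells. In endothelial-like cells, a type in which Prx is known from the lung, it was at 9.48 in PBS and 10.9 in CFA.

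The wider myelin programme was described with 7 lists of other genes, chosen with earlier results of these data known. Counts below 1 in each list stand beside the share over all genes that reached 10 UMIs in both libraries. That share was 44.0% in Schwann-like cells and 40.7% in myelinating-like cells. Of 10 other structural myelin genes, 9 had a ratio below 1 in Schwann-like cells, with a median of 0.703 against 1.04 over all genes. Pmp2 (0.207, from 107 to 27 UMIs), a fatty acid-binding protein of myelin, was at least 2-fold lower. Cd9, a tetraspanin, was at 0.757, and Cnp, an enzyme of the cytoplasmic channels of myelin, at 0.761. In myelinating-like cells 8 of the 10 were below 1, with a median of 0.829.

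Of 19 genes of myelin lipid synthesis, 12 were below 1 in Schwann-like cells (median 0.924) and none was past 2-fold. In myelinating-like cells 17 of the 19 were below 1, with a median of 0.668 against 1.07 over all genes. Among them, Idi1 of the isoprenoid pathway was at 0.468 and Hmgcs1, an early enzyme of cholesterol synthesis, at 0.561. Scd2, a fatty acid desaturase, was at 1.31. Ugt8a, which makes the myelin lipid galactosylceramide, was at 0.645.

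Of 9 promyelin transcription genes, 6 were below 1 in Schwann-like cells (median 0.889), and Pou3f2, a POU factor that acts beside Pou3f1, was at least 2-fold higher (2.19, from 36 to 96 UMIs). Pou3f1, which acts upstream of Egr2, was at 0.677, Zeb2 at 0.866 and Sox10 at 0.792. Nab1 and Nab2, cofactors of Egr2, were at 0.606 and 0.889. Egr2 was therefore above 1 while both of its cofactors were below 1, although the interval of Nab2 held 1 (0.636 to 1.25). In myelinating-like cells 6 of the 9 were again below 1 (median 0.973), with Nab1 at 0.503, Nab2 at 0.973 and Pou3f2 at 2.20.

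Of 8 inhibitors of myelination, 6 reached 10 UMIs in both libraries, and 5 of these 6 were above 1, with a median of 1.47. Jun, which opposes Egr2, was at 1.17, Sox2 at 1.61 and Egr1 at 0.921. In myelinating-like cells the median was 1.09, near that of all genes, with Jun at 1.28 (1.20 to 1.37), Sox2 at 1.12 (0.804 to 1.55) and Egr1 at 1.07 (0.997 to 1.14). The Sox2 ratio was thus nearer 1 in myelinating-like cells, with an interval that held 1.

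Of 11 genes of axon and matrix signalling, 7 were below 1 (median 0.982), with Dag1, the dystroglycan that binds laminin, at 0.918 and Lama2, a laminin chain, at 0.982. In myelinating-like cells 5 of the 11 were below 1 (median 1.07), with Dag1 at 1.10 (1.01 to 1.21), on the other side of 1, and Lama2 at 0.879. Of 6 genes of nonmyelinating Schwann cells, 5 reached 10 UMIs in both libraries and 3 of these were below 1. Cadm2 was at 0.551, and Ncam1, an adhesion molecule that also marks the Fabp7 cluster, was at least 2-fold higher (2.57, 2.28 to 2.90). In myelinating-like cells 4 of the 6 reached 10 UMIs and 3 of these were above 1 (median 1.80), with Cadm2 there at 1.64 (1.27 to 2.12), the opposite direction, and Ncam1 at 2.05. Of 8 genes of the repair state that Schwann cells enter after nerve injury, only Runx2 had 10 UMIs in each library (0.615, and 0.483 in myelinating-like cells), and Ccl2, a chemokine for monocytes, had 0 UMIs in PBS and 10 in CFA.

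**Figure D4:**
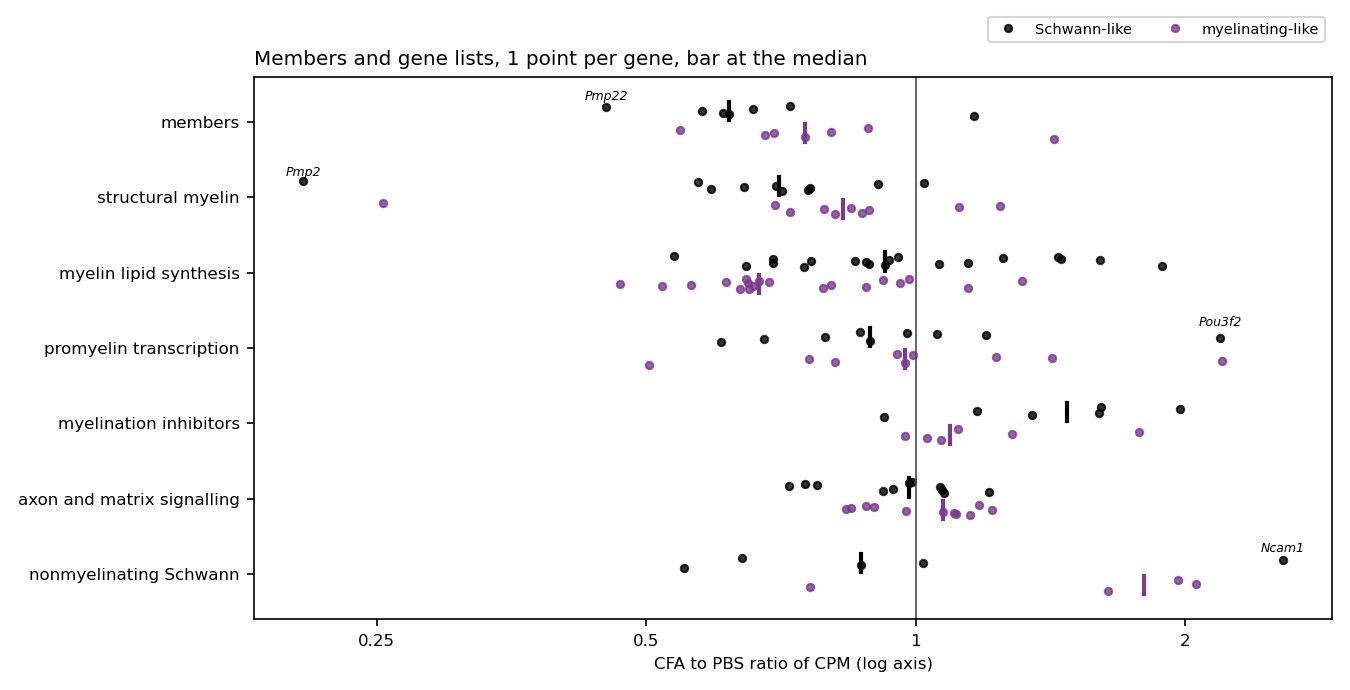
CFA to PBS ratio of CPM on a log axis for the 7 genes (members) and 6 gene lists, 1 point per gene that reached 10 UMIs in both libraries, in all Schwann-like cells and in myelinating-like cells. Bars mark medians. The median of the 7 genes is 0.618 and 0.753, that of the structural myelin list 0.703 and 0.829, and that of lipid synthesis 0.924 and 0.668.

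Genes with the pattern most like that of the set were sought over 20 points, 10 classes in each of the 2 libraries, by Pearson correlation with the mean of the 7 genes on the log2(CPM + 10) scale. Among 8154 genes the highest were Cldn19 (0.993), Fa2h (0.991), Cntf (0.988), Fam178b (0.987), Ugt8a (0.986), Gjb1 (0.985), Bcas1 (0.985), Sox10 (0.985), Gal3st1 (0.984) and Ankfn1 (0.983). Of these 10 genes, 6 are in the lists above, and 4, namely Cntf, Fam178b, Bcas1 and Ankfn1, are not. Each member was also set against the mean of the other 6, with 0.982 for Prx, 0.972 for Mag, 0.965 for Ncmap, 0.900 for Mbp, 0.893 for Mal, 0.873 for Pmp22 and 0.715 for Egr2. The points of 1 library share its preparation and depth, and Schwann-like cells are 2 of the 20 points, so these values mainly state how closely a gene is limited to that class.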

How the data were processed

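The authors sequenced 10x droplet libraries, counted UMIs per gene and barcode with Cell Ranger 7.0.1 on mm10 (GRCm38), and deposited raw counts of 7671 PBS and 5709 CFA barcodes (51146169 and 53517206 UMIs). The annotation release is not given in the sources used here, and the labels and methods differ in kit version and digestion. Kept cells held 27201994 and 44432717 UMIs.

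Cells were clustered with Seurat 5.3.0 (SCTransform 0.4.2, integration anchors on 3000 genes, of which 2982 remained after the myelin genes had been left out, 200 principal components, resolution 1.5, R 4.3.3). Clusters were named from at least 3 markers found in 25% of cells and 2-fold higher than in other cells, with 10 CPM (UMIs scaled to a fixed total) added; 5 stayed unnamed. Doublets were kept in the main values. Python 3.11.15 was used with pandas 2.3.3, scipy 1.17.1 and numpy 2.4.6 for sums, ratios and exact Poisson, Clopper-Pearson and conditional binomial intervals, and matplotlib 3.10.9 for figures. UMIs collapse PCR copies, yet the intervals cover counting error only. Where no UMI was counted, 3 counts set the limit. The ratio step was tested on simulated data.

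The 7 genes, the gene lists and the alternatives were chosen with earlier results of these data known. Genes were named by rule: the 7 members, list genes past 2-fold, the 2 list genes with the most UMIs and the 10 genes of most like pattern. Genes named outside it (Fos, Fosb, Nr4a1, Atf3, Hspa1a, Sox10, Sox2, Nab1, Nab2, Ugt8a, Idi1 and the leading genes of clusters) were chosen after their values were seen. A few genes of the lists, and a planned comparison that rests on one of them, are not reported here.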

Additional observations from a re-analysis of the deposited data

How the results depend on the processing

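Over 19 alternatives (14 planned, 5 chosen after seeing the data) the 6 myelin protein genes stayed below 1 in Schwann-like cells and Egr2 stayed above 1. Not all of these were separate checks. Leaving out shared barcode sequences removed no Schwann-like cell, so it could not change a ratio. Resolution 0.8 gave the same 303 PBS and 376 CFA cell counts and the same ratios. Scaling by the median ratio divided every ratio by 1.04. Ratios ran from 0.523 to 0.782 for Mbp, 0.410 to 0.621 for Pmp22, 0.657 to 0.926 for Prx, 0.549 to 0.792 for Mal, 0.559 to 0.893 for Mag, 0.598 to 0.855 for Ncmap and 1.05 to 1.55 for Egr2. The count of genes at least 2-fold lower went from 1 to 0 with a mean over cells, with thinning to 1000 UMIs, in myelinating-like cells only, and, chosen after seeing the data, without the Fabp7 glia cluster and in either myelinating cluster alone. Pmp22 then lay between 0.502 and 0.621. The count at least 10-fold over every other named class was 6 in both libraries under 8 alternatives, though folds over the highest other class ran from 15.6 to 173 in PBS and 14.3 to 168 in CFA; these include leaving out the cells with the highest Scrublet doublet scores (5%, scanpy 1.11.5). No paired analysis was possible because each condition has 1 library, and for the same reason no library could be left out. The smallest sums limit Mag, Prx and Ncmap outside the myelinating clusters.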

Other observations

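Barcodes outside the limits on cells also held transcripts of these genes. In PBS, 1537 barcodes with under 500 genes held 1141 Mbp UMIs, 9.66% of the library's Mbp UMIs, at 159 CPM, and in CFA 944 such barcodes held 201, or 2.72%. Kept cells held 70.7% of the Mbp UMIs in PBS and 93.1% in CFA, and from 76.9% to 85.9% and from 95.04% to 97.9% of those of the other 6 genes. Barcodes in which the 7 genes made up at least 3% of UMIs numbered 49 in PBS and 4 in CFA among those with under 500 genes, and 68 and 23 among kept cells. The PBS library had 3178 barcodes over the hemoglobin limit but within the others and the CFA library 339, and the part of these barcodes in the values was tested only by the alternative without that limit.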
